A study of Homo sapiens with 18 samples.

Results

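The SOX family of transcription factors was examined in RNA sequencing of 3 human glioblastoma cell lines, and its 10 members described here were SOX2, SOX4, SOX5, SOX6, SOX8, SOX9, SOX10, SOX11, SOX12 and SOX13. They were picked out by gene symbol from the 46218 genes of the deposited count table. No value enters that rule, but the family was chosen with earlier results of these data known. The lines LN229, T98G and U118-MG carried either a guide against DDA1 (sgDDA1) or a control guide (sgCon), which gives 6 groups of 3 libraries: LN229 sgDDA1 and LN229 sgCon, T98G sgDDA1 and T98G sgCon, and U118-MG sgDDA1 and U118-MG sgCon. DDA1 encodes a small component of ubiquitin ligases built on DDB1 and the CUL4 cullins, and the comparison of the guides asks which transcripts differ when DDA1 is targeted. All cells grew in DMEM with fetal bovine serum. The labels give neither the way the guides were delivered, nor whether a line was a pool or a clone, nor whether replicate libraries stem from separate cultures. All p-values therefore rest on a spread that may be technical.

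SOX proteins bind a short DNA core through a shared HMG box and act mostly together with partner factors. SOX2 of the SOXB1 subgroup keeps neural stem cells undifferentiated. SOX4, SOX11 and SOX12 form the SOXC subgroup of neural and mesenchymal progenitors. SOX5, SOX6 and SOX13 form the SOXD subgroup, which lacks an activation domain of its own. SOX8, SOX9 and SOX10 form the SOXE subgroup, with SOX9 known for glial specification and cartilage and SOX10 for oligodendrocytes, Schwann cells and pigment cells. Several SOX proteins are removed through ubiquitin ligases, a step that RNA levels do not measure.

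Promoter sequence is shown for 4 members with contrasting responses to the DDA1 guide. SOX5 was higher in both LN229 and T98G, SOX12 and SOX13 responded differently in the 2 lines, and SOX2 passed the test in neither. Each stretch ends at the annotated start or, for SOX5 and SOX2, just before the first base that GENCODE 29 places in an exon. Sequences are from RefSeq on GRCh38.p14, given 5′ to 3′ on the gene's strand: SOX5 at chr12:24562545-24562741 (minus strand), SOX12 at chr20:325302-325551 (plus), SOX13 at chr1:204072865-204073114 (plus) and SOX2 at chr3:181711675-181711923 (plus). Capitals mark matches, on either strand, to the SOX core ACAAT, the CCAAT box CCAAT, the GC box GGGCGG or the E box CACGTG.
SOX5: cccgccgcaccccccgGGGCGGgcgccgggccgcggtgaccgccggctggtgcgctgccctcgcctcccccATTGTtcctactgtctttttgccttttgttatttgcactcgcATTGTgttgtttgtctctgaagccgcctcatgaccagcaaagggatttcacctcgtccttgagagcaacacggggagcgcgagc
SOX12: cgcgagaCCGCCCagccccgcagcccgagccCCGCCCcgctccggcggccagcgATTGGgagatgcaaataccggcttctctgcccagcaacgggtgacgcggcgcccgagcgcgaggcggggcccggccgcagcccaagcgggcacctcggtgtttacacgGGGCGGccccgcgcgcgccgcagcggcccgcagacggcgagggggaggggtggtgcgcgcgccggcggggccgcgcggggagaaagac
SOX13: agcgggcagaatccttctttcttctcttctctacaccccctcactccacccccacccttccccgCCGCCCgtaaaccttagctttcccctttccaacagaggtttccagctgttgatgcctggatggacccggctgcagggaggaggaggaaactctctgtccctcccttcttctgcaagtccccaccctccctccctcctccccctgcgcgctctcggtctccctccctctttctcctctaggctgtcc
SOX2: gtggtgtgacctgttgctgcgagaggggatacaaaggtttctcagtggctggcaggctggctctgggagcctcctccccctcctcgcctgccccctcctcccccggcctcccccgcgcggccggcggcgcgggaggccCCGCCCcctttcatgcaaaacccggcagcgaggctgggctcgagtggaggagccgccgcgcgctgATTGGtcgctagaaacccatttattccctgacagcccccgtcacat

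The RefSeq table held a promoter for 6 of the 10 members, with 5 alternative starts for SOX6. In the 250 bases before the start, SOX5 held 2 SOX core matches and each SOX6 start held 1 or 2, whereas SOX2, SOX4, SOX12 and SOX13 held 0. The core stood in 24.6% of 35116 promoters of that length. Some SOX6 windows held exon bases of SOX6 or C11orf58. GC content was 27.2% to 58.8% in the SOX6 windows, 65.6% in SOX5, 48.8% in SOX4, 60.8% in SOX13, 68.8% in SOX2 and 79.2% in SOX12. The median over all promoters was 58%, and the part of base composition in these matches was not tested. SOX4 held 4 CCAAT boxes, a motif found in 32% of promoters, but its window before the RefSeq start lies inside the exon that GENCODE 29 gives for SOX4. SOX12 held 3 GC boxes, found in 42.6%. None of the 10 windows held the E box, which stood in 6.34% of promoters, and no base belonged to matches of more than 1 motif. A match is a description of the exact letters and not a bound site, and other forms of these motifs were not searched.

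Total counts per library ranged from 44.9 to 94.1 M, and 1 LN229 sgCon library was the deepest. DDA1 itself was measured at 34.2, 32.1 and 34.8 CPM (counts scaled to a common library total with TMM factors) in LN229 sgDDA1, against 47.6, 49.2 and 48.8 CPM in LN229 sgCon (log2 fold change -0.52, adjusted p = 1.18e-08, edgeR quasi-likelihood test with Benjamini-Hochberg adjustment over all genes tested, as for every adjusted p below). In T98G it was measured at 56.6, 59.8 and 55.6 CPM with sgDDA1 and 61.4, 68.3 and 67 CPM with sgCon (-0.19, adjusted p = 0.00482). It had 66.3, 59 and 63.8 CPM in U118-MG sgDDA1 and 71.7, 56 and 50 CPM in the libraries labelled U118-MG sgCon, which overlapped. A guide need not lower the transcript of its target, so these values check the labels only in part. The 3 libraries labelled U118-MG sgCon stood closer to LN229 than to U118-MG. Their median absolute log2 difference over genes was 0.35 to 0.72 from the LN229 sgDDA1 mean and 0.41 to 0.79 from the LN229 sgCon mean. From the U118-MG sgDDA1 mean it was 1.06 to 1.24. Pairs among them differed by 0.17 to 0.51, against 0.12 to 0.20 in the other groups. All 3 libraries lay nearer to the LN229 sgDDA1 mean than to the LN229 sgCon mean. They are called the libraries labelled U118-MG sgCon throughout, they were left out of the fit behind the LN229 and T98G results, and their values are given as labelled. Markers expected of glioma lines varied, with group means of 66 to 2380 CPM for VIM, 2.33 to 70.1 for NES and 3.41 to 2350 for CD44, the last at 3.85 CPM in LN229 sgDDA1 and 3.41 CPM in LN229 sgCon. Of the astrocyte markers, SLC1A3 had group means of 4.58 to 99.7 CPM, and GFAP 0.218 to 3.02 CPM. In bulk RNA, fewer cells of a type and less RNA per cell cannot be told apart.

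**Figure D1:**
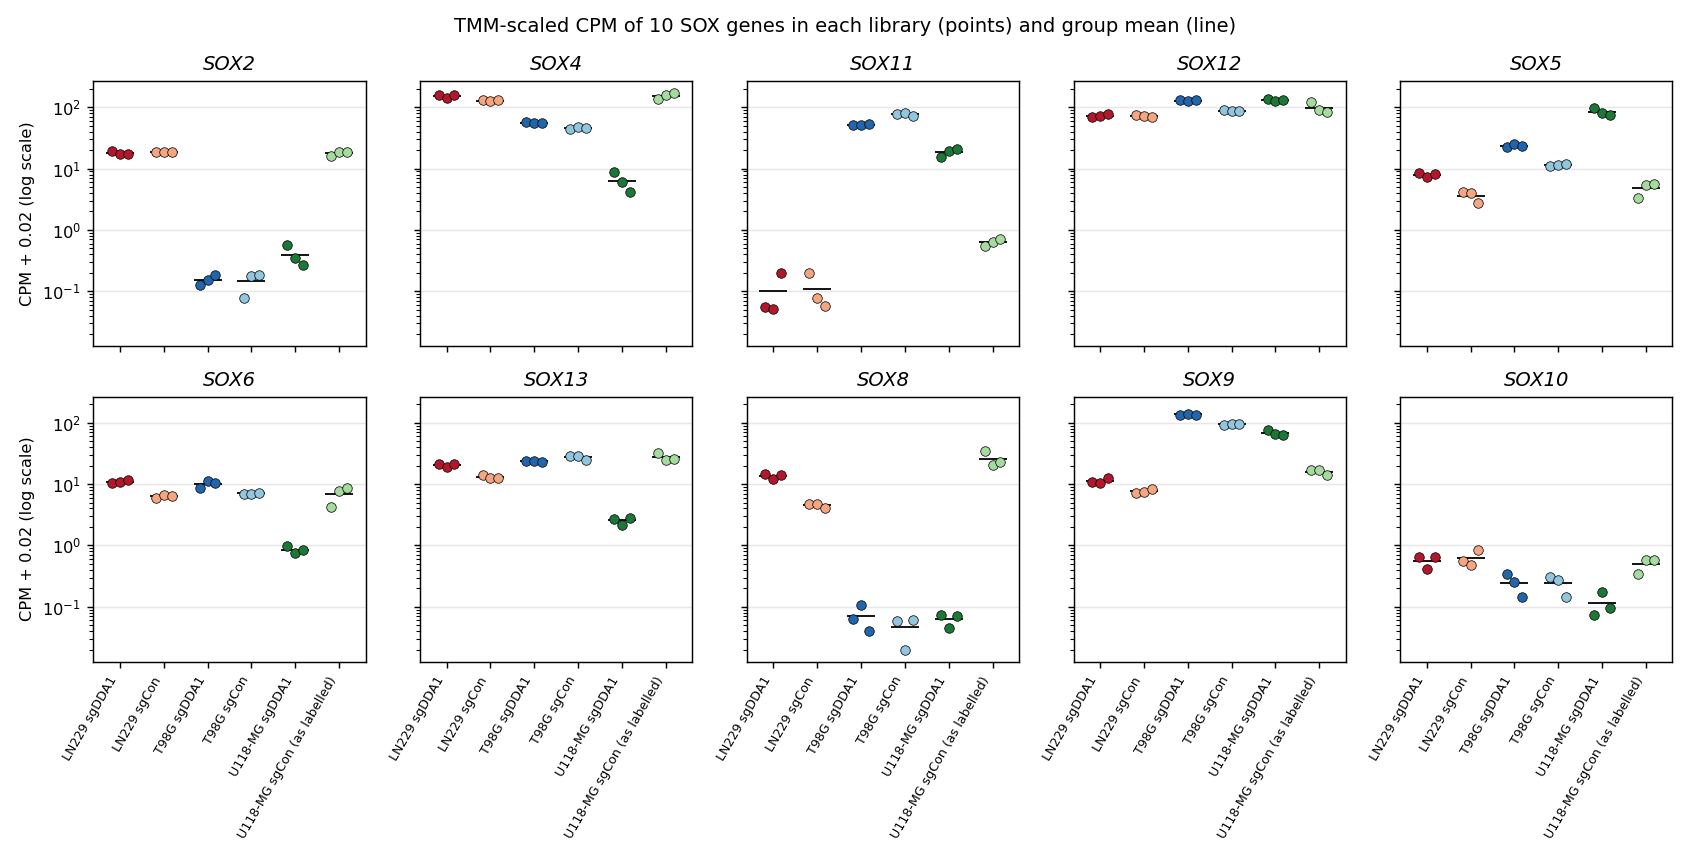
TMM-scaled CPM plus an offset of 0.02, on a log axis, of the 10 SOX genes in each of the 18 libraries (points) with the group mean (line), 3 libraries per group. SOX2, SOX8 and SOX11 differ between lines by orders of magnitude, while SOX12 lies between 69.6 and 134 CPM in all 18 libraries.

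All 10 members passed the filter on low counts in both fits. With the DDA1 guide 6 members rose in LN229 (SOX4, SOX5, SOX6, SOX8, SOX9 and SOX13) and none fell, and 5 rose in T98G (SOX4, SOX5, SOX6, SOX9 and SOX12) while SOX11 and SOX13 fell. The share of all 24020 tested genes called was 45.6% in LN229 (26.2% higher and 19.4% lower) and 39.0% in T98G (19.4% higher and 19.6% lower). The median log2 fold change of the 10 members was 0.41 in LN229, where the median of all genes was 0.06, and 0.40 in T98G, where it was 0. The libraries of the 2 guides did not overlap for 6 members in LN229 and 7 in T98G, and for 54.8% of all tested genes in LN229 and 49.4% in T98G. Tested directly, the responses of 2 members, SOX12 and SOX13, differed between T98G and LN229, against 34.4% of all genes.

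**Figure D2:**
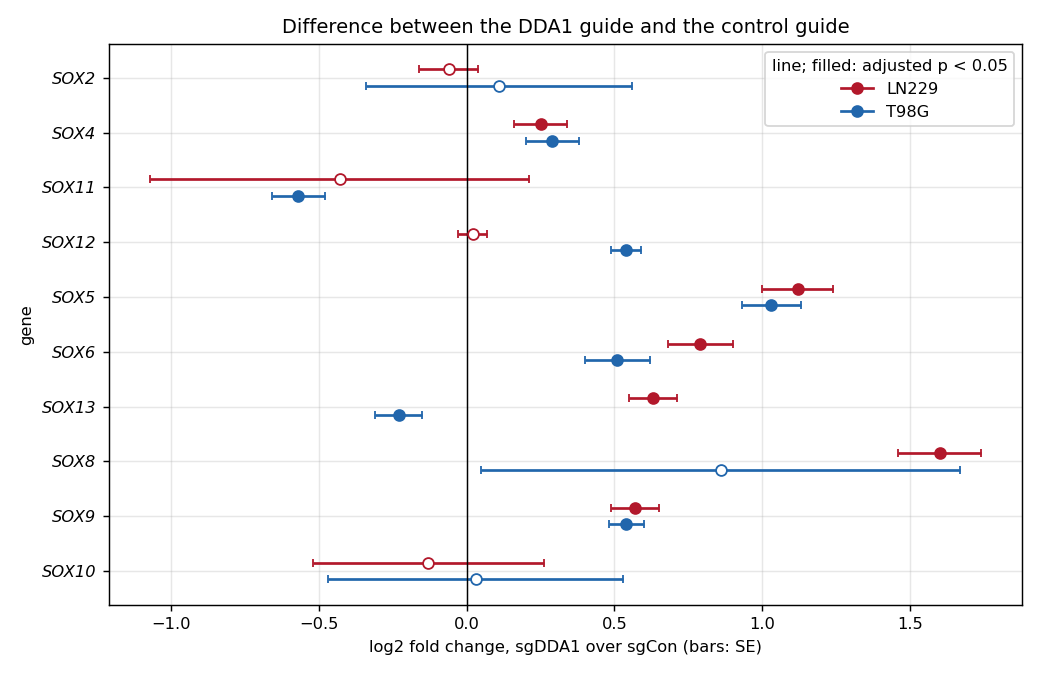
Fitted log2 fold change of sgDDA1 over sgCon for each SOX gene in LN229 (red) and T98G (blue), with bars of 1 SE and filled points for an adjusted p under 0.05. SOX4, SOX5, SOX6 and SOX9 lie above 0 in both lines, and the points of SOX12 and SOX13 lie apart.

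SOX2 (chr3:181711924-181714436, a single exon on the plus strand, GRCh38) lies within the non-coding gene SOX2-OT and shares no exon base with it. It had 19, 17.3 and 17.2 CPM in LN229 sgDDA1 and 18.7, 18.3 and 18.6 CPM in LN229 sgCon. The groups overlapped, and the log2 difference was -0.06 (SE 0.10, adjusted p = 0.689). In T98G, SOX2 was nearly absent under either guide, with 5, 6 and 8 reads per library under sgDDA1 and 3, 8 and 8 under sgCon. At that depth a change with the guide was not detectable.

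Among the SOXC genes, SOX4 (chr6:21592768-21598619, a single exon), a factor of progenitor survival and mesenchymal programmes, was the most abundant member in LN229. SOX4 had 158, 142 and 159 CPM in LN229 sgDDA1, against 130, 126 and 129 CPM in LN229 sgCon. In T98G it had 57.5, 55.3 and 55.8 CPM with sgDDA1, against 44.5, 48.3 and 45 CPM with sgCon. Every sgDDA1 library lay above every sgCon library in both lines, by 0.25 on the log2 scale (SE 0.09, adjusted p = 0.0178) in LN229 and 0.29 (SE 0.09, adjusted p = 0.0133) in T98G. This call was lost in both lines with DESeq2 (adjusted p = 0.248 in LN229 and 0.251 in T98G) and with all 18 libraries in the fit (0.217 and 0.182), and without the libraries numbered 2 (0.072 and 0.0559). In LN229 it was also lost without sgCon replicate 2 (adjusted p = 0.0579) or 3 (0.0512) and without sgDDA1 replicate 1 (0.0676) or 3 (0.0697). An antisense gene, AL512380.2, overlaps 2.87% of the exon bases of SOX4. The sources do not state whether reads were counted by strand, so reads from the shared bases cannot be told apart.

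SOX11 (chr2:5692667-5701385, a single exon), a factor of immature neurons, was abundant in T98G and near its detection limit in LN229. It had 50.4, 51.1 and 53.3 CPM in T98G sgDDA1, against 77.9, 80.7 and 72.1 CPM in T98G sgCon. The sgDDA1 libraries lay below all sgCon libraries, and SOX11 fell by 0.57 on the log2 scale (SE 0.09, adjusted p = 6.7e-06). In LN229 it had 2, 2 and 10 reads per library with sgDDA1 and 18, 3 and 2 with sgCon, so its response there was not detectable at this depth. Its log2 difference of -0.43 (adjusted p = 0.634) was called without the libraries numbered 3 (-1.92, adjusted p = 0.0443) and was 1.09 (adjusted p = 0.301) without those numbered 1.

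SOX12 (chr20:325595-330224, a single exon), the SOXC member with the weakest activation domain, had 129, 124 and 130 CPM in T98G sgDDA1, against 90.7, 87.6 and 86.6 CPM in T98G sgCon. The groups stood well apart, and SOX12 rose by 0.54 on the log2 scale (SE 0.05, adjusted p = 3.22e-10). In LN229 it had 70.3, 70.9 and 77.3 CPM with sgDDA1 and 73.5, 73 and 69.6 CPM with sgCon. These groups overlapped (log2 difference 0.02, SE 0.05, adjusted p = 0.819). Tested directly, the response in T98G exceeded that in LN229 by 0.52 (SE 0.06, adjusted p = 3.37e-07).

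Within the SOXD subgroup, SOX5 (chr12:23529500-24562544, minus strand), which in mice restrains SOXE targets in oligodendrocyte precursors and aids them in cartilage, had the largest of the responses called in both lines. It had 8.32, 7.4 and 8.24 CPM in LN229 sgDDA1, against 4.16, 3.91 and 2.75 CPM in LN229 sgCon. In T98G it had 22.7, 25 and 23.1 CPM with sgDDA1, against 11, 11.6 and 12 CPM with sgCon. In each line the lowest sgDDA1 library lay well above the highest sgCon library. The log2 fold change was 1.12 (SE 0.12, adjusted p = 1.55e-08) in LN229 and 1.03 (SE 0.10, adjusted p = 3.99e-09) in T98G, and the 2 responses differed by -0.09 (SE 0.16, adjusted p = 0.736). In the authors' deposited table for LN229, which lists 36 genes as up and 6 as down, SOX5 was the single member. It had mean normalized counts of 482 with sgDDA1 and 226.76 with sgCon and a log2 difference of 1.08 (their adjusted p = 4.37e-12). Their list is far shorter than the 10949 genes called in LN229 here. SOX8, with a log2 fold change of 1.60 here, is not on it, so absence from their list is not read as no response.

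SOX6 (chr11:15966449-16739591, minus strand), the usual partner of SOX5 in cartilage and in glial progenitors, had 10.4, 10.6 and 11.7 CPM in LN229 sgDDA1, against 5.86, 6.71 and 6.36 CPM in LN229 sgCon. In T98G it had 8.7, 11 and 10.3 CPM with sgDDA1, against 6.91, 6.99 and 7.14 CPM with sgCon. The guides separated in both lines, by 0.79 (SE 0.11, adjusted p = 6.3e-07) in LN229 and 0.51 (SE 0.11, adjusted p = 0.000355) in T98G. The difference between these responses, -0.28 (SE 0.15, adjusted p = 0.163), did not pass the test. C11orf58 overlaps 1.12% of the exon bases of SOX6.

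SOX13 (chr1:204073115-204127743, plus strand), a SOXD member described in lymphoid cells and in neural development, went up in LN229 but not in T98G. It had 21.1, 19 and 20.9 CPM in LN229 sgDDA1, against 14.3, 12.5 and 12.4 CPM in LN229 sgCon, and rose by 0.63 (SE 0.08, adjusted p = 3.42e-07). In T98G it had 23.5, 23.5 and 23.3 CPM with sgDDA1, against 28.5, 29.2 and 24.7 CPM with sgCon. The T98G groups did not overlap, and SOX13 fell by 0.23 on the log2 scale (SE 0.08, adjusted p = 0.0228). The T98G call was lost without sgCon replicate 1 (adjusted p = 0.0994) or 2 (0.123), without sgDDA1 replicate 1 (0.0528), 2 (0.0555) or 3 (0.0621), without the libraries numbered 1 (0.085) or 2 (0.178), and with all 18 libraries in the fit (0.163). The difference of the responses, -0.86 in T98G minus LN229 (SE 0.11, adjusted p = 9.03e-07), was called.

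Of the SOXE genes, SOX8 (chr16:981808-986979, plus strand), a close relative of SOX9 and SOX10 active in glial progenitors, had the largest response of the 10 members in LN229. It had 14.8, 12.3 and 13.9 CPM in LN229 sgDDA1, against 4.74, 4.7 and 4.04 CPM in LN229 sgCon, with the groups far apart (log2 fold change 1.60, SE 0.14, adjusted p = 3.26e-10). T98G libraries held 1 to 4 SOX8 reads with sgDDA1 and 0 to 2 with sgCon, too few for a fold change.

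SOX9 (chr17:72121020-72126420, plus strand), which specifies glia and drives cartilage collagen genes, rose by nearly the same log2 amount in both lines from very different levels. It had 10.8, 10.3 and 12.6 CPM in LN229 sgDDA1, against 7.21, 7.35 and 8.17 CPM in LN229 sgCon. In T98G it had 135, 140 and 134 CPM with sgDDA1, against 92.6, 94.2 and 95.7 CPM with sgCon. No sgDDA1 library overlapped an sgCon library, and the log2 fold change was 0.57 (SE 0.08, adjusted p = 2.55e-06) in LN229 and 0.54 (SE 0.06, adjusted p = 1.29e-07) in T98G. The responses differed by -0.04 (SE 0.10, adjusted p = 0.838).

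The non-coding antisense gene SOX9-AS1 (chr17:72034107-72237203, minus strand) spans the SOX9 locus without sharing an exon base with SOX9. SOX9-AS1 had 0.899, 0.804 and 0.987 CPM in LN229 sgDDA1, against 0.245, 0.376 and 0.295 CPM in LN229 sgCon (log2 fold change 1.59, SE 0.26, adjusted p = 1.37e-05). In T98G SOX9-AS1 had 3.74, 4.5 and 4.63 CPM with sgDDA1, against 1.22, 1.93 and 1.81 CPM with sgCon (1.38, SE 0.20, adjusted p = 2.49e-06). It was higher with the DDA1 guide in all libraries of both lines, as SOX9 was. The authors' deposited table also lists SOX9-AS1 as up in LN229, with a log2 difference of 1.52.

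SOX10 (chr22:37970686-37987422, minus strand), the main regulator of myelin and pigment genes, was low everywhere. It had 0.629, 0.386 and 0.628 CPM in LN229 sgDDA1 and 0.528, 0.451 and 0.83 CPM in LN229 sgCon, and at most 0.322 CPM in any T98G library. Groups overlapped in both lines (log2 difference -0.13, SE 0.39, in LN229 and 0.03, SE 0.50, in T98G), with 6 to 54 reads per library behind these values. POLR2F overlaps 2.4% of its exon bases.

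The libraries labelled U118-MG sgCon carried the control guide by label. Over all genes they stood closest to LN229, and nearest to LN229 sgDDA1. Their SOX levels are set beside the LN229 results. These libraries also held transcripts that were high in U118-MG sgDDA1 and low in LN229. COL1A1 averaged 247 CPM, LUM 14.6 and DCN 9.95 in them, against 12.8, 0.0316 and 0.069 CPM in LN229 sgCon. In U118-MG sgDDA1 these 3 genes averaged 1960, 592 and 241 CPM. The part of these transcripts in the SOX values of the libraries was not tested. SOX8 had 34.4, 20.8 and 23 CPM there. Compared with LN229 sgCon in the fit of all 18 libraries, they were higher for SOX8 (log2 fold change 2.53, SE 0.18), SOX9 (1.08, SE 0.10), SOX13 (1.08, SE 0.11), SOX11 (2.47, SE 0.38) and SOX12 (0.44, SE 0.11), so 5 of 10 members were called, against 49.7% of 24418 genes. The SOX11 difference was 3.64 without LN229 sgCon replicate 1, which held 18 of the SOX11 reads of that group. Without the other groups in the fit the SOX12 call was lost (adjusted p = 0.0987). SOX5 had 3.34, 5.44 and 5.67 CPM in them (0.41, SE 0.17, adjusted p = 0.0531), SOX6 4.28, 7.78 and 8.76 CPM (0.14, SE 0.18, adjusted p = 0.542) and SOX4 137, 157 and 170 CPM (0.27, SE 0.15, adjusted p = 0.136). For SOX5 and SOX6 all 3 lay below every LN229 sgDDA1 library. Without replicate 1 of the libraries labelled U118-MG sgCon, the differences from LN229 sgCon were called for SOX4 (0.35, adjusted p = 0.00321), SOX5 (0.60, adjusted p = 0.000495) and SOX6 (0.40, adjusted p = 0.00706). The SOX5 difference was also called with DESeq2 (adjusted p = 0.0389) and without LN229 sgCon replicate 1 (0.54, adjusted p = 0.0327). For SOX8, SOX9, SOX11, SOX12 and SOX13 all 3 lay above every LN229 sgDDA1 library, SOX11 with 0.529 to 0.683 CPM against at most 0.18 CPM. What these libraries share with LN229 sgDDA1 was not tested.

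Differences between lines reached larger sizes than those between guides. T98G sgCon and LN229 sgCon differed in 9 of 10 members, with 74.8% of all genes called. SOX2 had 0.126 ± 0.0591 CPM in T98G sgCon, against 18.6 ± 0.2 CPM in LN229 sgCon (SD, n = 3 each; log2 fold change -7.23). SOX11 had 76.9 ± 4.37 CPM in T98G sgCon, against 0.0898 ± 0.0754 CPM in LN229 sgCon (9.39, and 10.58 without LN229 sgCon replicate 1, which held 18 reads), and SOX9 had 94.2 ± 1.54 CPM, against 7.58 ± 0.52 CPM (3.60). SOX8 was at 0.0266 ± 0.023 CPM in T98G sgCon and 4.49 ± 0.391 CPM in LN229 sgCon. SOX5 (1.61), SOX13 (1.02) and SOX12 (0.25) were also higher in T98G, SOX4 (-1.52) and SOX10 (-1.46) were lower, and SOX6 did not pass the test (0.12, SE 0.11, adjusted p = 0.34). The SOX10 call was lost without the libraries numbered 3 (-0.90, adjusted p = 0.121).

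U118-MG sgDDA1 had another pattern. Against LN229 sgDDA1 all 10 members were called, as were 78.0% of genes: SOX5 (3.39), SOX9 (2.58), SOX11 (7.79) and SOX12 (0.83) were higher, and SOX2 (-5.60), SOX4 (-4.61), SOX6 (-3.72), SOX8, SOX10 (-2.52) and SOX13 (-3.02) were lower. The SOX11 value rests on 2, 2 and 10 reads in the LN229 sgDDA1 libraries and ranged from 7.37 to 8.98 when libraries were left out. SOX5 had 98.5, 80.3 and 75.6 CPM in U118-MG sgDDA1, against 8.32, 7.4 and 8.24 CPM in LN229 sgDDA1, the highest level of SOX5 in the series. SOX4 had 8.89, 6.1 and 4.12 CPM in U118-MG sgDDA1, below all other libraries. Against T98G sgDDA1, 7 of 10 were called (67.2% of genes): SOX5 (1.87) and SOX2 (1.46) were higher, SOX4 (-3.13), SOX6 (-3.56), SOX9 (-0.98), SOX11 (-1.45) and SOX13 (-3.19) were lower, and SOX8, SOX10 and SOX12 did not pass. SOX10 (-1.23, adjusted p = 0.0727) was called without T98G sgDDA1 replicate 3 (-1.55, adjusted p = 0.0314) or without U118-MG sgDDA1 replicate 2 (-1.77, adjusted p = 0.0377). SOX2 stayed at 0.539, 0.329 and 0.253 CPM in U118-MG sgDDA1, against 0.107, 0.13 and 0.167 CPM in T98G sgDDA1, and this call was lost without the libraries numbered 1 (0.97, adjusted p = 0.063). The fibroblast and pericyte markers DCN, LUM, COL1A1 and PDGFRB summed to 2720 to 3380 CPM in U118-MG sgDDA1, against 27.3 to 31.5 CPM in LN229 sgDDA1 and 220 to 228 CPM in T98G sgDDA1. In the libraries labelled U118-MG sgCon they summed to 238 to 348 CPM. PDGFRB alone went the other way against T98G, with a mean of 140 CPM in U118-MG sgDDA1 and 208 CPM in T98G sgDDA1. The part of these markers in the SOX differences was not tested.

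Set against the libraries labelled U118-MG sgCon, U118-MG sgDDA1 differed in all 10 members, as in 72.2% of genes. SOX8 had 2, 1 and 2 reads per library in U118-MG sgDDA1, too few for a fold change, and 1690, 1085 and 1212 reads in the libraries labelled U118-MG sgCon. SOX11 had the largest positive log2 fold change (4.93), with 15.5, 19.1 and 21.2 CPM in U118-MG sgDDA1 and 0.529, 0.613 and 0.683 CPM in the libraries labelled U118-MG sgCon. The call of SOX12 (0.42) was lost with only these 2 groups in the fit (0.28, adjusted p = 0.162) and without the libraries numbered 2 (adjusted p = 0.0528) or 3 (0.113). Since the libraries labelled U118-MG sgCon resemble LN229, line and guide cannot be told apart in this comparison.

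**Figure D3:**
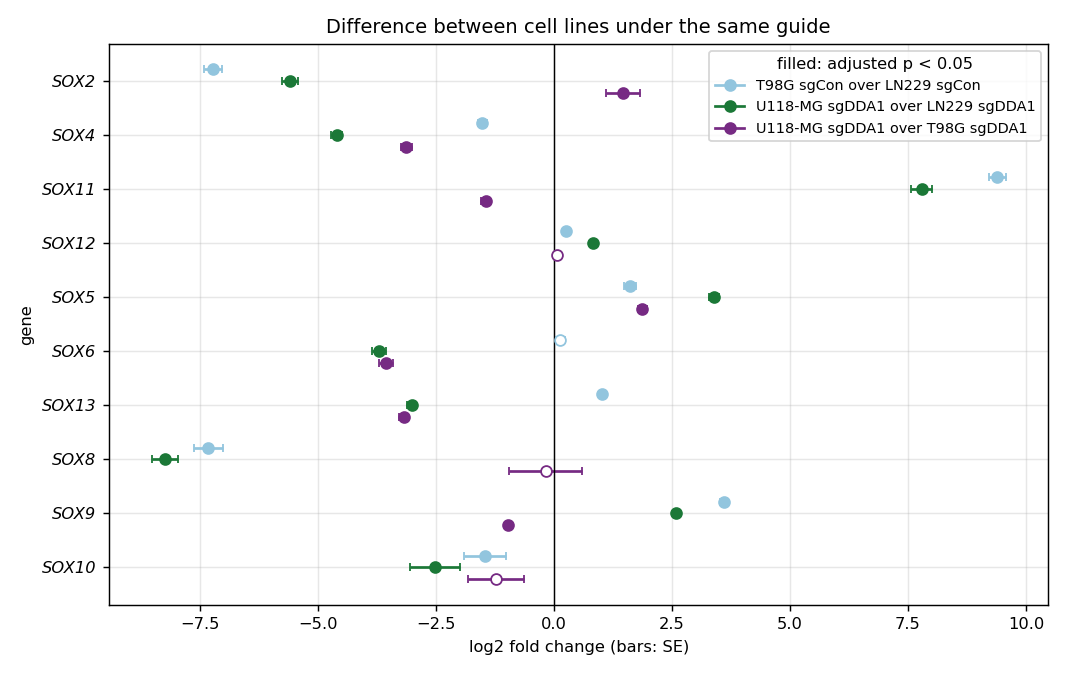
Fitted log2 fold changes between lines under the same guide for each SOX gene, with bars of 1 SE and filled points for an adjusted p under 0.05. SOX11 lies at 9.39 in T98G and 7.79 in U118-MG against LN229, where it had 2 to 18 reads per library, and SOX4 at -1.52 and -4.61.

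Levels of different genes were compared with the deposited FPKM values, which are divided by gene length. SOX4 and SOX12 led in LN229 under either guide (35.9 and 17.8 FPKM with sgDDA1, 29.1 and 17 FPKM with sgCon). In T98G SOX9 and SOX12 led (32.3 and 25.5 FPKM with sgDDA1, 23 and 18.1 FPKM with sgCon), and in U118-MG sgDDA1 SOX12 (23 FPKM), SOX9 (14.3 FPKM) and SOX5 (6.31 FPKM) led. Each line had a different leading set, with SOX12 among the first 2 in every group.

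Within LN229 sgDDA1, SOX8, SOX9 and SOX13 stood close together at 3.50, 3.27 and 3.14 FPKM, whereas in LN229 sgCon SOX8 at 1.11 FPKM stood below SOX9 at 2.13 FPKM and SOX13 at 1.94 FPKM. SOX8 made up 50.5% ± 2.62 of the summed SOXE FPKM in LN229 sgDDA1, against 32.7% ± 3.75 in LN229 sgCon (SD, n = 3 each). In T98G, SOX9 made up over 99% of SOXE under either guide (99.8% with sgDDA1 and 99.7% with sgCon). SOXE made up 9.42% ± 0.326 of the summed FPKM of the 10 members in LN229 sgDDA1, against 5.64% ± 0.224 in LN229 sgCon, and 40.8% ± 0.919 in T98G sgDDA1, against 36.4% ± 0.977 in T98G sgCon.

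SOXD changed its makeup by line and guide. SOX13 supplied 54.6% ± 1.52 of SOXD FPKM in T98G sgDDA1, against 72.6% ± 2.46 in T98G sgCon, while SOX5 supplied 36.9% ± 0.836 in T98G sgDDA1, against 20.6% ± 1.97 in T98G sgCon. In U118-MG sgDDA1, SOX5 alone supplied 95.2% ± 0.74. In SOXC, SOX11 supplied 12.8% ± 0.365 in T98G sgDDA1, against 23.2% ± 0.727 in T98G sgCon, and SOX12 61.3% ± 0.318, against 51.3% ± 1.25. These shares are descriptions with no test.

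**Figure D4:**
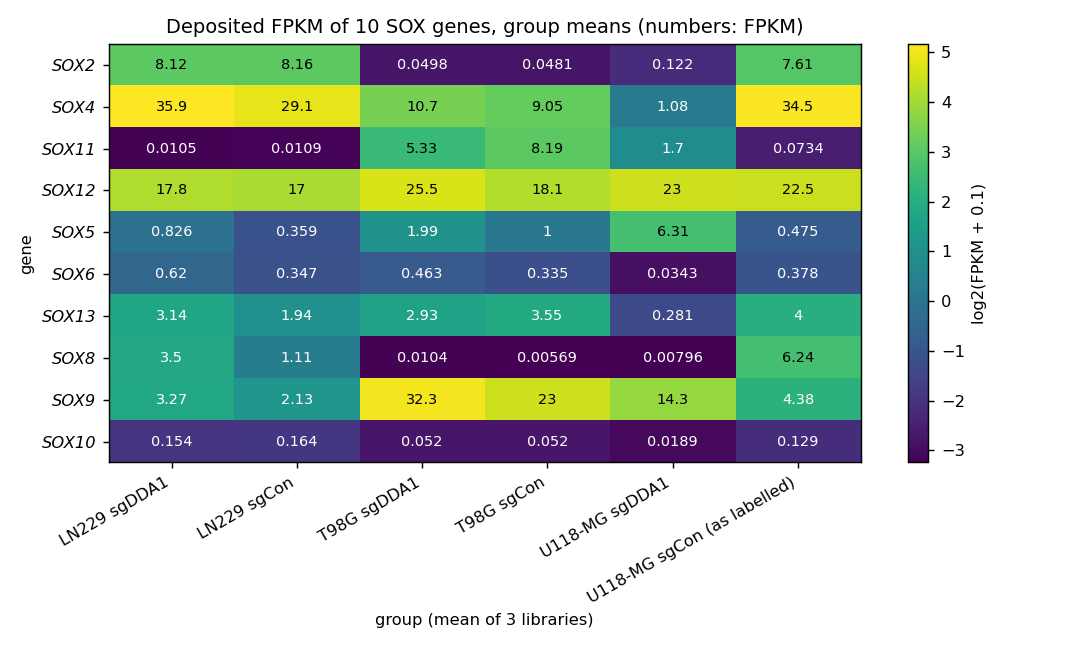
Group means (3 libraries each) of the deposited FPKM of the 10 SOX genes, coloured by log2(FPKM + 0.1) with the FPKM printed in each cell. SOX4 reaches 35.9 FPKM in LN229 sgDDA1, SOX9 32.3 FPKM in T98G sgDDA1 and SOX5 6.31 FPKM in U118-MG sgDDA1.

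The genes whose log2 CPM most resembled a member over 15 libraries had Pearson correlations of 0.986 to 0.998. These values cover more than 1 gene per member, and the closest gene was FAM135A for SOX2, ELAVL2 for SOX4 and RBMS3 for SOX5. It was SEPTIN3 for SOX6, SIX3 for SOX8, RBCK1 for SOX9, PSMB8 for SOX11, PBXIP1 for SOX12 and RAP1GAP for SOX13. The libraries fall into 3 lines, so these values describe differences between lines and have no test.

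Of 9 further SOX genes, 5 were tested. SOX21, a SOXB2 repressor, had 5.56 ± 0.856 CPM in LN229 sgDDA1, against 2.48 ± 0.23 CPM in LN229 sgCon (log2 fold change 1.17, SE 0.20, adjusted p = 2.24e-05), and SOX18, of endothelial cells, rose by 0.60 (SE 0.21, adjusted p = 0.0198). SOX15 fell by 0.72 on the log2 scale (SE 0.21, adjusted p = 0.00562), and none of the 5 was called in T98G by edgeR. SOX21 had 6.75 ± 0.595 CPM in the libraries labelled U118-MG sgCon.

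Genes around the SOX factors were counted in lists. Of all tested genes, 26.2% were called higher and 19.4% lower in LN229, and 19.4% higher and 19.6% lower in T98G. Counts near those shares are not read as a result about a list. Cartilage genes driven by SOX9, SOX5 and SOX6 had 10 of 14 tested genes higher and 0 lower in LN229 sgDDA1 (median log2 fold change 1.45), and 2 higher and 3 lower in T98G sgDDA1 (median -0.42). COL2A1, the main cartilage collagen, had 28.1 ± 1.86 CPM in LN229 sgDDA1, against 11.2 ± 1.68 CPM in LN229 sgCon, and PAPSS2, which makes the sulfate donor of cartilage proteoglycans, rose by 0.63 (SE 0.05, adjusted p = 2.67e-10). In T98G PAPSS2 fell by 0.12 (SE 0.05, adjusted p = 0.0453). COL27A1, a fibrillar collagen, rose by 0.90 in LN229 (SE 0.06) and fell by 0.39 in T98G (SE 0.06, adjusted p = 9.29e-06). In T98G, COL11A2 had 5.94 ± 0.611 CPM with sgDDA1, against 3.49 ± 0.182 CPM with sgCon. The chondrocyte markers COL2A1, ACAN and MATN1, all members of this list, summed to 29.8 to 33.2 CPM in LN229 sgDDA1, against 10.3 to 13.9 CPM in LN229 sgCon. COL2A1 made up most of both sums, with ACAN at 2.26 and 0.433 CPM and MATN1 at 0.924 and 0.655 CPM. These markers summed to 0.71 to 0.945 CPM in T98G sgDDA1 and 0.895 to 1.44 CPM in T98G sgCon. COL2A1 had a mean of 45 CPM in the libraries labelled U118-MG sgCon.

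Myelin, Schwann and pigment cell genes driven by SOX10 and SOX8 had 11 of 16 tested genes higher and 1 lower in LN229 (median 1.04), and 6 higher and 0 lower in T98G (median 0.14). CSPG4, the proteoglycan NG2 of oligodendrocyte progenitors, had 17.5 ± 0.935 CPM in LN229 sgDDA1, against 2.94 ± 0.313 CPM in LN229 sgCon. CSPG4 also rose in T98G (0.47, SE 0.18, adjusted p = 0.0429). MYRF, a regulator of myelin genes, rose in LN229 (1.58, SE 0.09, adjusted p = 3.75e-13) and in T98G (0.99, SE 0.10, adjusted p = 1.87e-08). CNP, an enzyme of myelin, fell by 0.33 in LN229 (SE 0.04) and rose by 0.44 in T98G (SE 0.04). The defining pigment enzyme TYR had at most 0.0215 CPM in any library. Of the other melanocyte markers, PMEL averaged 1.93 CPM, DCT 1.57 and MLANA 1.33 in LN229 sgDDA1, against 0.59, 1.15 and 1.4 CPM in LN229 sgCon. Their T98G means were 1.21, 0.0144 and 0.462 CPM with sgDDA1, against 0.855, 0.0257 and 0.495 CPM with sgCon. Of the oligodendrocyte markers, MBP averaged 7.38 CPM, OLIG2 4.87, OLIG1 0.463 and MOG 0.149 in LN229 sgDDA1, against 5.29, 3.39, 0.292 and 0.0687 CPM in LN229 sgCon. In T98G none of these 4 averaged over 0.77 CPM under either guide. Their part in these counts was not tested.

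Ubiquitin system genes that act on SOX proteins had 13 of 16 lower and 1 higher in LN229 (median -0.27, with DDA1 itself among the lower genes), and 3 lower and 4 higher in T98G (median -0.04). USP7, a deubiquitinase, fell by 0.39 in LN229 (SE 0.04, adjusted p = 1.57e-08), and RBX1, the RING subunit of cullin ligases, fell by 0.45 (SE 0.06). CUL4A, the scaffold of the ligases that contain DDA1, fell in LN229 (by 0.30, SE 0.04) and in T98G (by 0.29, SE 0.04), while its paralog CUL4B rose in LN229 (by 0.28, SE 0.04) and in T98G (by 0.12, SE 0.04). USP22 fell by 0.35 in LN229 and rose by 0.19 in T98G (SE 0.04 each).

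Partner transcription factors had 9 of 20 higher and 3 lower in LN229 (median 0.21), and 7 higher and 5 lower in T98G (median 0.14). NFIB, a nuclear factor of gliogenesis, had 31.4 ± 0.859 CPM in LN229 sgDDA1, against 43.6 ± 1.45 CPM in LN229 sgCon, but 34.3 ± 1.37 CPM in T98G sgDDA1, against 23.8 ± 0.611 CPM in T98G sgCon. NFIA, which acts with SOX9 in astrocyte formation, rose in T98G by 1.77 (SE 0.10, adjusted p = 1.8e-13). In LN229 NFIA fell by 0.22 (SE 0.08, adjusted p = 0.0223). Neural progenitor genes bound or used by SOX2 had 4 of 13 higher and 3 lower in LN229 (median 0.04), and 2 higher and 4 lower in T98G (median -0.11). NES, an intermediate filament of neural stem cells, had 57 ± 4.45 CPM in LN229 sgDDA1, against 9.96 ± 0.55 CPM in LN229 sgCon, with a mean of 70.1 CPM in the libraries labelled U118-MG sgCon. NES also rose in T98G (0.94, SE 0.12, adjusted p = 8.14e-07). CDH2, N-cadherin, had 32.6 ± 0.764 CPM in T98G sgDDA1, against 89.8 ± 1.78 CPM in T98G sgCon. CDH2 also fell in LN229 (by 0.25, SE 0.05, adjusted p = 4.71e-05).

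Neuronal genes bound or used by SOX4 and SOX11 had 4 of 8 higher and 2 lower in LN229 (median 0.21), and 1 higher and 2 lower in T98G (median -0.18). MAP2, a dendritic microtubule protein, rose in LN229 by 1.24 (SE 0.16) and fell in T98G by 1.04 (SE 0.12). DPYSL3, of axon growth, had 475 ± 8.89 CPM in T98G sgDDA1, against 868 ± 19.7 CPM in T98G sgCon. The neuron markers RBFOX3, SYT1, SNAP25 and STMN2 summed to 16.9 to 17.5 CPM in T98G sgDDA1, against 12.1 to 14.6 CPM in T98G sgCon. SNAP25 made up most of both sums, with means of 16.8 CPM in T98G sgDDA1 and 12.2 CPM in T98G sgCon. SYT1 (0.208 and 0.505 CPM) and RBFOX3 (0.228 and 0.256 CPM) were lower with sgDDA1, and STMN2 was at 0 with both guides. Signalling components that induce SOX9 and SOX4 had 9 of 22 higher and 3 lower in LN229 (median 0.09), and 5 higher and 9 lower in T98G (median -0.04). GLI1, the transcriptional effector of Hedgehog signalling, had 4.52 ± 0.326 CPM in LN229 sgDDA1, against 1.57 ± 0.122 CPM in LN229 sgCon, and TGFB1 had 16.1 ± 0.675 CPM, against 6.84 ± 0.45 CPM. GLI1 also rose in T98G (0.78, SE 0.13, adjusted p = 1.97e-05). FGF2, a growth factor of neural progenitors, had 72 ± 3.03 CPM in T98G sgDDA1, against 169 ± 4.39 CPM in T98G sgCon. In LN229 FGF2 rose by 0.45 (SE 0.06, adjusted p = 9.96e-07), and in T98G TGFB1 fell by 0.17 (SE 0.05, adjusted p = 0.0117).

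**Figure D5:**
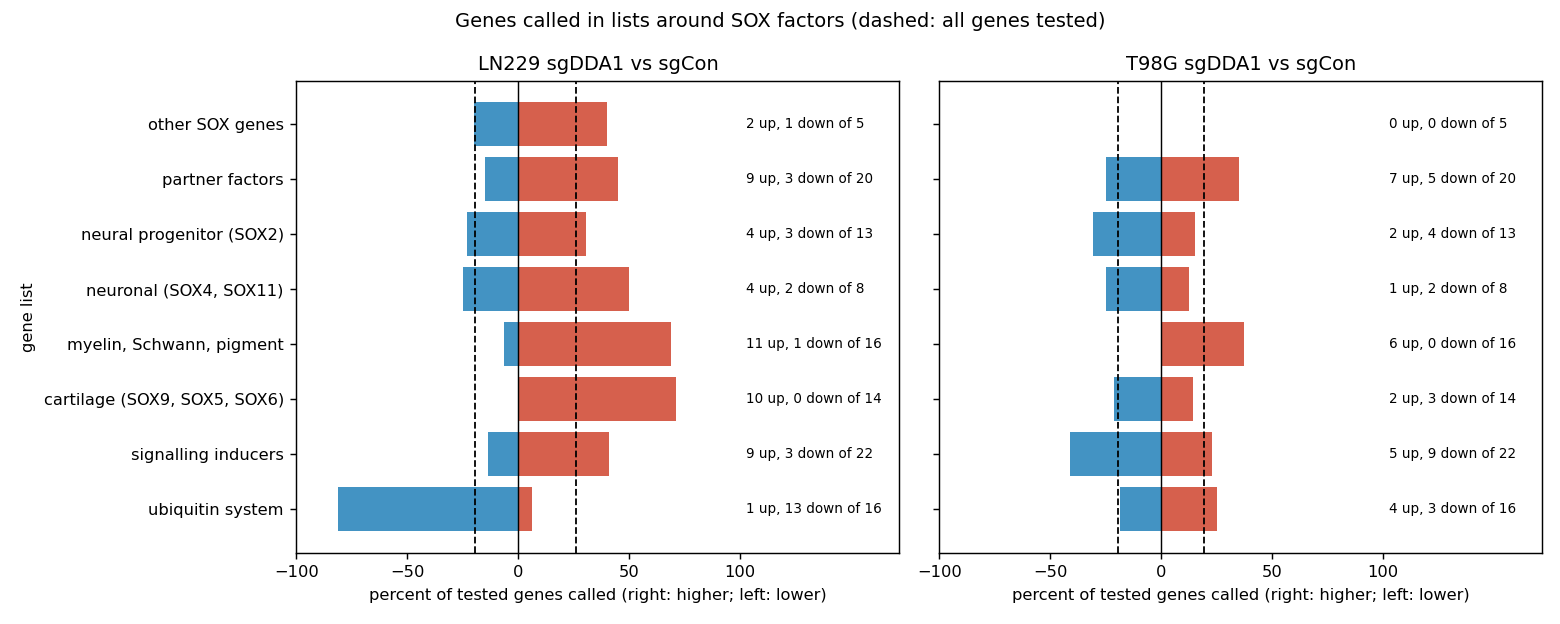
Percent of tested genes called higher (right, red) or lower (left, blue) with sgDDA1 than with sgCon in 8 lists, for LN229 and T98G, with dashed lines at the share of all tested genes called in that direction. In LN229 the cartilage list has 10 of 14 genes higher and the ubiquitin list, which includes DDA1, 13 of 16 lower.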

How the data were processed

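RNA sequencing covered 18 libraries in 6 groups of 3. Per the submitters' processing notes, the tools named are fastp 0.19.6, STAR 2.4.0, HTSeq 0.12.4 and DESeq2, on GRCh38. The deposited gene table holds raw counts and FPKM values made by the authors, and the FPKM were used to compare genes. The authors' deposited table of LN229 genes gives, per the file headers, mean normalized counts (a signal), log2 fold changes and p-values, and it was used only where it is named. Every count line named a gene, and each data column could be tied to a sample or group.

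Counts were tested with edgeR 4.0.16 (R 4.3.3) using filterByExpr, TMM scaling and the quasi-likelihood F-test, with Benjamini-Hochberg adjustment over all genes tested (24020 in the fit of 15 libraries, 24418 in that of 18) and a threshold of 0.05. Each group had its own mean and there were no covariates. The SE is the log2 fold change divided by the root of the F statistic. The script was tested on simulated data. Alternatives were DESeq2 1.42.0, RLE scaling, no filter, halved counts, all 18 libraries, only the groups compared, the replicate block and leaving out libraries.

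The SOX genes and the 8 lists (132 entries) were chosen with earlier results of these data known. From each list, the text names genes among the 3 with the smallest adjusted p per line at a mean of at least 1 CPM; some list genes and markers are not reported here. RBX1, CUL4B, for LN229 also CUL4A, CNP, NFIA, FGF2 and CDH2, and for T98G also PAPSS2, TGFB1, NES, GLI1 and CSPG4, were named after their values were seen. SOX9-AS1 was taken from a list of non-coding genes at SOX loci. Others of that list were also called higher with sgDDA1: SOX1-OT (log2 fold change 2.70) and SOX21-AS1 (1.23) in LN229, and SOX2-OT (1.78, SE 0.69, adjusted p = 0.0427) in T98G. SOX2-OT was near the floor there, with means of 0.142 CPM in T98G sgDDA1 and 0.0403 CPM in T98G sgCon. Loci and exon overlaps are from GENCODE 29 on GRCh38.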

Additional observations from a re-analysis of the deposited data

Results flagged for a closer look

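The DDA1 guide's difference from the control guide was itself different in T98G and LN229 for 2 of the 10 SOX genes, by the test of the difference across all genes (34.4% of genes called). SOX12 responded more in T98G than in LN229 by 0.52 on the log2 scale (SE 0.06, adjusted p = 3.37e-07): it averaged 128 ± 3.17 CPM in T98G sgDDA1, against 88.3 ± 2.12 CPM in T98G sgCon, and 72.8 ± 3.86 CPM in LN229 sgDDA1, against 72 ± 2.11 CPM in LN229 sgCon (SD, n = 3 each). SOX13 differed by -0.86 (SE 0.11, adjusted p = 9.03e-07): it averaged 23.4 ± 0.12 CPM in T98G sgDDA1, against 27.5 ± 2.43 CPM in T98G sgCon, and 20.4 ± 1.2 CPM in LN229 sgDDA1, against 13.1 ± 1.08 CPM in LN229 sgCon.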

How the results depend on the processing

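Over the 8 comparisons, 1315 alternative values of the 10 SOX genes were computed. Of these, 1239 kept direction and side of the threshold, 24 lost the call, 11 gained it and 41 changed sign, every one of the last for a gene not called. With all 18 libraries in the fit, fewer genes were called in LN229 (7185, against 10949), in T98G (5402, against 9363) and for the difference of responses (4227, against 8257), and SOX4 lost its call in both lines and SOX13 in T98G. With only the groups compared, 7711 genes were called between the libraries labelled U118-MG sgCon and LN229 sgCon, against 12127. SOX12 in LN229 was -0.02 with only the groups compared and -0.01 with no filter, and SOX2 in T98G was -0.04 with halved counts. Leaving out libraries gave ranges across 0 for SOX10 (-0.34 to 0.14), SOX11 (-1.92 to 1.09) and SOX12 (-0.06 to 0.06) in LN229, and for SOX2 (-0.24 to 0.34), SOX8 (-0.31 to 1.63) and SOX10 (-0.30 to 0.33) in T98G. The difference of responses ranged from -0.18 to 0.40 for SOX2, -0.01 to 0.08 for SOX4, -0.23 to 0.13 for SOX5, -2.01 to 0.11 for SOX8, -0.10 to 0.05 for SOX9, -0.16 to 0.46 for SOX10 and -1.64 to 1.28 for SOX11. SOX8 in U118-MG sgDDA1 against T98G sgDDA1 ranged from -0.67 to 0.70. In the libraries labelled U118-MG sgCon against LN229 sgCon, SOX2 ranged from -0.13 to 0.01 and SOX6 from -0.06 to 0.40. The cause was not tested. Same-numbered libraries of the 2 guides in a line did not deviate together (correlations of -0.02 to 0.03). This shows no strong shared deviation and cannot decide whether the numbers pair libraries. With a replicate block 10693 genes were called in LN229 and 9186 in T98G, and no SOX call changed. Low counts limit SOX10, SOX11 in LN229, and SOX2 and SOX8 in T98G.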
